A study of Mus musculus with 6 samples.

Results

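Ifit1, Ifit2, Ifit3, Ifit3b, Rtp4, Mx1, Xaf1 and Zbp1 are type I interferon target genes. Their RNA was measured here by sequencing in marrow cells that CD8 microbeads had pulled out of mice with bone marrow failure. The genes are 8 of the 54532 in the count table and were found there by symbol. They were chosen by measured values of these libraries, from the comparison of ruxolitinib with control pools in total and relative to the T cell genes Cd3e and Cd8a, in which Ifit1 and Rtp4 were among the largest falls. Their differences between the groups are therefore a description: no p-value is given for them, and counts of them past a threshold support nothing.

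The ruxolitinib group was 3 libraries from female CByB6F1 mice with bone marrow failure that received ruxolitinib, a drug that blocks JAK1 and JAK2 kinase activity. The control group was 3 libraries from female CByB6F1 mice with the same disease that were left untreated. CByB6F1 is an F1 hybrid of the BALB/c and C57BL/6 strains, and all mice were 2 to 5 months old. Each library came from the pooled cells of 2 to 3 mice of its group, so a library averages over its mice; the labels state no dose, length of treatment or way of inducing the disease. The ruxolitinib pools are numbered 1 to 3 and the control pools 4 to 6.

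Type I interferons bind the receptor chains IFNAR1 and IFNAR2, whose kinases JAK1 and TYK2 phosphorylate transcription factors, STAT2 among them. These join IRF9 in a complex that binds the interferon-stimulated response element, a DNA motif with repeated GAAA, and switches on antiviral genes. Interferon gamma signals through JAK1 and JAK2 and raises many of the same genes. The IFIT proteins are RNA-binding proteins that recognise foreign RNA and block its translation, and Rtp4, Mx1, Xaf1 and Zbp1 act at other steps of the antiviral response.

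Libraries of the ruxolitinib group held 13829808 to 14139605 counted reads and control libraries 15740514 to 17708196. Although CD8 beads were used for every library, the summed level of 17 CD8 T cell identity genes was 1905 to 5469 CPM in the ruxolitinib pools, against 10591 to 13008 CPM in the control pools. A level is the count of a gene relative to the size of its library (CPM) after TMM scaling, which sets libraries to a common level over most genes. Of these 17 genes 15 fell and none rose (edgeR's quasi-likelihood test, adjusted p under 0.05). For this and the lists below, the share over all 13480 tested genes was 25.3% that fell and 29.9% that rose. Of 11 erythroid genes all rose, with summed levels of 125216 to 245572 CPM in ruxolitinib pools and 1915 to 2748 CPM in control pools. Of 13 monocyte and macrophage genes 12 rose and Ccr2 fell, with summed levels of 8824 to 14536 CPM in ruxolitinib pools and 1247 to 1604 CPM in control pools. B cell genes summed to 1037 to 1606 CPM in ruxolitinib pools and 208 to 266 CPM in control pools, where Ms4a1 and Pax5 had no count; 10 of 11 rose. Plasmacytoid dendritic cell genes summed to 317 to 401 CPM in ruxolitinib pools and 345 to 427 CPM in control pools, where Siglech, Ly6d, Spib and Klk1 had no count; 8 of 10 rose and Bst2, itself an interferon target, fell. Granulocyte, conventional dendritic and stromal genes had summed levels that were higher in every ruxolitinib pool as well. Of the conventional dendritic sum of 2581 to 2872 CPM in ruxolitinib pools, Cd74 alone gave 1894 to 2011 CPM. In control pools Cd74 gave 688 to 800 CPM of a sum of 1200 to 1351 CPM. Of 12 granulocyte genes 9 rose and Prtn3 fell, and of 10 conventional dendritic genes 5 rose and Xcr1 and Batf3 fell. Of 9 stromal genes 8 rose and none fell. Of 7 natural killer genes 4 passed the filter: Tyrobp and Fcer1g, which myeloid cells also express, rose, and the receptor genes Klre1 and Klra7 fell. Ruxolitinib pool 3 stood nearest to the controls in T cell content, with Cd3e and Cd8a at a geometric mean of 460 CPM, against 173 and 188 CPM in pools 1 and 2. The part of these shifts in the results below was not tested, and in bulk RNA fewer cells of a type cannot be told apart from less RNA per cell.

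All 8 genes were lower in every ruxolitinib pool than in any control pool. Such a separation in the lower direction was seen for 30.3% of the 13480 genes that passed the filter on low counts, and 25.3% of them fell at adjusted p under 0.05, as did all 8 genes, while 29.9% rose. Nothing is read from these counts, since the same contrast chose the genes. All 8 passed the filter. Together they summed to 34.1 to 60.0 CPM in ruxolitinib pools and 358 to 390.1 CPM in control pools. Their log2 fold changes had a median of -2.93, against 0.03 for all tested genes.

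**Figure D1:**
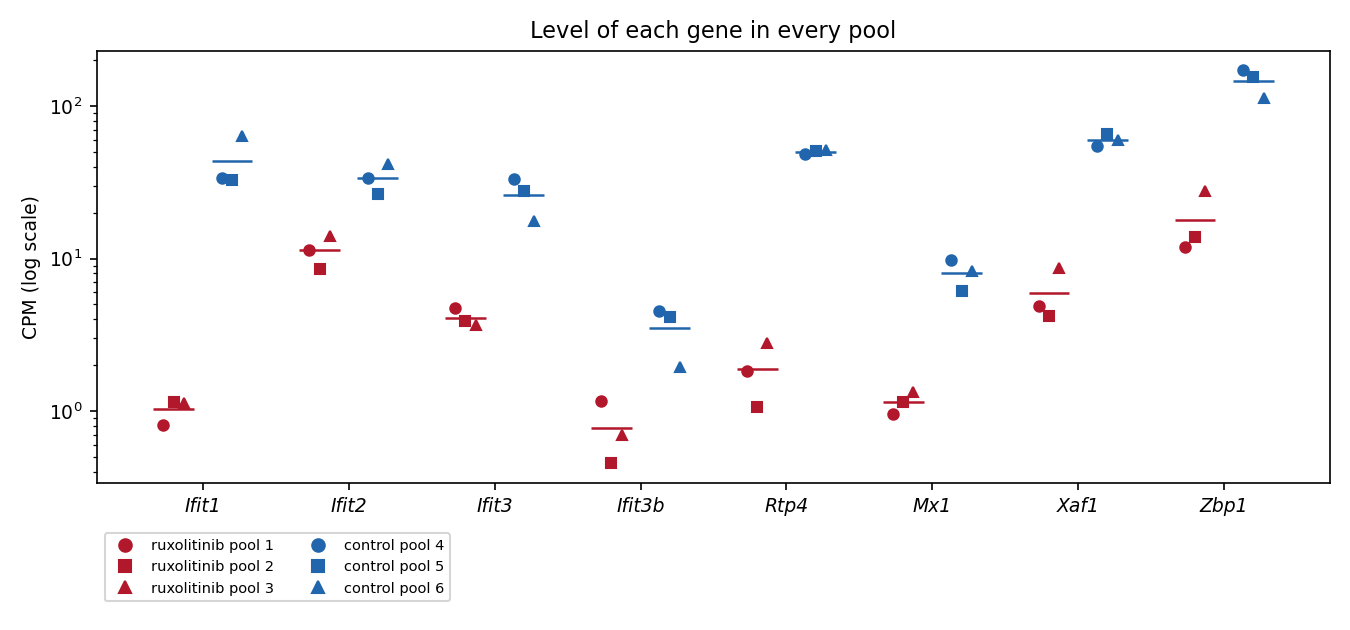
Level of each of the 8 genes in CPM on a log axis, with 1 point for each pool and a bar at the group mean (3 ruxolitinib pools left, 3 control pools right; symbol shapes tell pools of a group apart and do not pair pools across groups). For every gene the ruxolitinib points lie below the control points, with the widest gap for Ifit1 and Rtp4 and the narrowest for Ifit2.

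The members of the IFIT family differed widely in the size of their fall. Ifit1, whose protein binds RNA that lacks the cap methylation of host messages, had 0.805, 1.14 and 1.14 CPM in ruxolitinib pools 1, 2 and 3, against 33.9, 33.0 and 64.1 CPM in control pools 4, 5 and 6. Control pool 6 held nearly double the level of the other controls, and the ruxolitinib pools were all low. The log2 fold change of Ifit1 was -5.39 ± 0.37 (SE), the sixth lowest of 13480. These ruxolitinib values rest on 11, 15 and 18 reads, 44 in all, with an exact 95% Poisson interval of 32.0 to 59.1 that covers counting error only.

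Ifit2, which encodes an IFIT protein linked to restriction of viral replication and to cell death, was the member with the smallest difference. It had 11.4, 8.52 and 14.1 CPM in ruxolitinib pools, against 33.6, 26.4 and 41.4 CPM in control pools. The groups did not overlap, but the lowest control lay less than 2-fold above the highest ruxolitinib pool. The log2 fold change was -1.57 ± 0.27.

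Ifit3, whose human protein binds and stabilises IFIT1, had 4.76, 3.88 and 3.67 CPM in ruxolitinib pools, against 33.2, 27.9 and 17.7 CPM in control pools, a log2 fold change of -2.68 ± 0.30. Its near copy Ifit3b had 1.17, 0.456 and 0.695 CPM in ruxolitinib pools, against 4.54, 4.12 and 1.93 CPM in control pools (-2.18 ± 0.53). Both genes were lowest in control pool 6 among the controls, the pool in which Ifit1 and Ifit2 were highest. Of all stretches of 50 bases in the Ifit3b transcript 44.5% also occur in the Ifit3 transcript (GENCODE M21), so reads could be credited to either copy and the split between them is uncertain. The sum of both genes does not depend on that split, but it would miss shared reads that were left uncounted. It came to 5.93, 4.33 and 4.36 CPM in ruxolitinib pools, against 37.8, 32.1 and 19.6 CPM in control pools. Ifit1 shares 7.06% of such stretches with Ifit1bl2 and 0.614% with Ifit1bl1. Ifit2 shares none with the other family members.

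The whole family lies within 99.3 kb of chromosome 19 (mm10, positions as deposited), and its 6 genes did not move as a block. In order along the chromosome, Ifit2 is at 34550694 to 34576419, Ifit3 at 34583531 to 34588731, Ifit1bl1 at 34592888 to 34601968, Ifit3b at 34607970 to 34613401, Ifit1bl2 at 34617049 to 34640743 and Ifit1 at 34640871 to 34650009. Ifit1bl1 and Ifit1bl2 lie on the minus strand and the others on the plus strand. Ifit1bl1, a relative of Ifit1 that was not among the 8 genes, had 2.34, 1.75 and 6.83 CPM in ruxolitinib pools, against 45.9, 38.5 and 49.7 CPM in control pools. Its groups did not overlap, and it fell by 3.60 ± 0.46 on the log2 scale (edgeR adjusted p = 0.000224). Ifit1bl2 had 2.78, 2.58 and 1.26 CPM in ruxolitinib pools, against 1.99, 1.31 and 0.997 CPM in control pools. Its groups overlapped, and its value of 0.61 ± 0.49 did not pass (edgeR adjusted p = 0.308) on 92 reads in ruxolitinib pools and 72 in control pools. The next gene with reads before the cluster, Lipa, which encodes a lysosomal lipase, rose by 2.61 ± 0.25 (edgeR adjusted p = 5.15e-05).

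**Figure D2:**
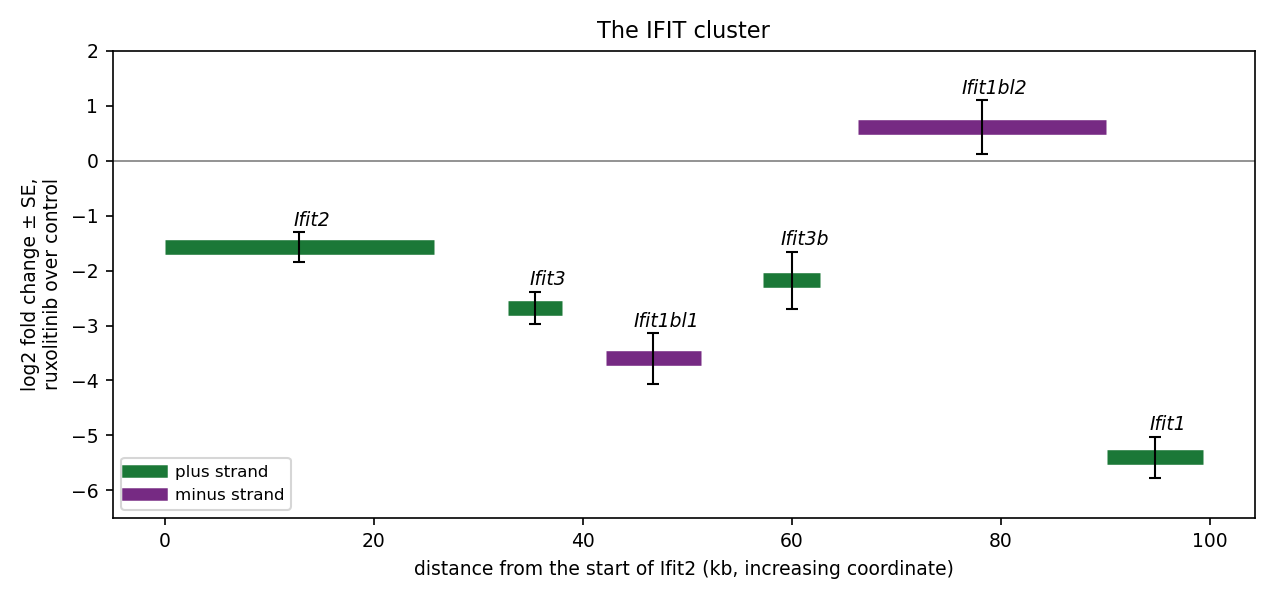
The 6 genes of the IFIT cluster drawn to scale by distance from the start of Ifit2 (kb), at the height of their log2 fold change, ruxolitinib over control, with SE bars (3 pools a group). Ifit1 at the right end is lowest (-5.39) and its neighbour Ifit1bl2, on the opposite strand, is the only gene above 0 (0.61 ± 0.49).

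The deposited starts of Ifit1 and Ifit1bl2 face away from each other across 127 bases, which are shown because the same DNA stands before a gene with a large fall and one with no call. The stretch is chr19:34640744-34640870 (GRCm38, plus strand, RefSeq sequence), read towards Ifit1. Capitals mark matches to the core of the interferon-stimulated response element, taken as GAAA, any 2 bases and GAAA, here in its reverse form of TTTC, any 2 bases and TTTC.
Ifit1: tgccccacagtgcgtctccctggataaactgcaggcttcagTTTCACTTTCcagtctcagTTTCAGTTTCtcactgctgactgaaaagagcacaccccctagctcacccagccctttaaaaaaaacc
The 2 matches began 104 and 85 bases before the RefSeq start of Ifit1, and on the other strand 51 and 70 bases before the outer of 2 RefSeq starts of Ifit1bl2. The window before its inner start held no match. Per pool, there were 0.289, 0.441 and 0.90 Ifit1 reads for each Ifit1bl2 read in ruxolitinib pools 1, 2 and 3, against 17.0, 25.2 and 64.3 in control pools 4, 5 and 6. This ratio is taken within a library and does not depend on scaling between libraries, but it still depends on which cells the library held. The geometric mean of Cd3e and Cd8a was 173, 188 and 460 CPM in ruxolitinib pools 1, 2 and 3, in the same order as the ratio. In control pools 4, 5 and 6 it was 960, 807 and 694 CPM, in the reverse order. The part of cell content in the ratio was not tested.

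The 250 bases before the starts of Ifit3 (chr19:34583279-34583528) and Ifit3b (chr19:34607707-34607956, both plus strand, GRCm38, RefSeq) are shown because the copies share their upstream DNA as well as their transcripts, with the same motif in capitals.
Ifit3: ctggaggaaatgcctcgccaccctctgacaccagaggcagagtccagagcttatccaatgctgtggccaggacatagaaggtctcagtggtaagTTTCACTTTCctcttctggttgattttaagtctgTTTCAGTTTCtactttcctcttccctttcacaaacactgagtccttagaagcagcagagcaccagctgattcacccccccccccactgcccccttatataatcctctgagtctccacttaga
Ifit3b: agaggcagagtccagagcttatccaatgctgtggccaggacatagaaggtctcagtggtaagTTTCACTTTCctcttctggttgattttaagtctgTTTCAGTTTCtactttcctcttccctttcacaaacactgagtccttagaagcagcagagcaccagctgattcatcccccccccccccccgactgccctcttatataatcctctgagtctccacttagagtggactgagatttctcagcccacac
The windows are offset from each other, and where they overlap in alignment they had 217 identical bases, 1 mismatch and 6 gap bases. Both held TTTCACTTTC and TTTCAGTTTC, the same pair of decamers as before Ifit1, at 156 and 122 bases before the start of Ifit3 and at 188 and 154 before that of Ifit3b. Ifit1bl1 has 2 RefSeq starts with 1 match before each, 104 and 23 bases upstream, and the 150 bases before the outer start are shown (chr19:34601969-34602118, minus strand).
Ifit1bl1: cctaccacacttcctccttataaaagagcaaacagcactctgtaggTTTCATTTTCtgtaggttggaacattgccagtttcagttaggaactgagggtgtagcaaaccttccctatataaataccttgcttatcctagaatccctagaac
No match lay in the windows before the 2 starts of Ifit2 or the start of Xaf1.

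Upstream windows of 250 bases were at hand for 5 of the 8 genes, and 3 of these genes, Ifit1, Ifit3 and Ifit3b, held this core on either strand. It was present before 3.46% of 27025 mouse genes with a window, and in 2.98% of their 32851 windows. It occurred before 10 of 33 other type I interferon targets, 11 of 19 interferon gamma leaning targets and 0 of 9 CD8 T cell identity genes with a window. The interferon gamma motif TTCNNNGAA, which reads alike on both strands, was present before 8.13% of all genes with a window and, of the 5 genes, only before Ifit2, starting 241 bases before its first start. Windows for Rtp4, Mx1 and Zbp1 were not used here. A match is a description of the letters and no evidence of binding.

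The IFIT genes also changed in proportion to each other. There were 0.0705, 0.134 and 0.0807 Ifit1 reads for each Ifit2 read in ruxolitinib pools, against 1.01, 1.25 and 1.55 in control pools, where both genes had similar counts. For Ifit3 the ratio to Ifit2 was 0.417, 0.455 and 0.260 in ruxolitinib pools, against 0.990, 1.06 and 0.427 in control pools. The Ifit3 ratio overlapped between the groups and the Ifit1 ratio did not. Nothing is read from this separation, since the same contrast chose the genes, with Ifit1 among its largest falls. Ifit3 per Ifit3b was 4.06, 8.5 and 5.27 in ruxolitinib pools and 7.32, 6.78 and 9.16 in control pools, with overlapping groups.

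Rtp4 showed the second largest difference of the 8. Its protein is a chaperone for the surface transport of certain receptors and also an interferon-induced RNA-binding antiviral protein. Rtp4 had 1.83, 1.06 and 2.78 CPM in ruxolitinib pools, against 48.7, 50.6 and 51.2 CPM in control pools. The control pools differed by only 1.05-fold from lowest to highest, the narrowest range of the 8, while the ruxolitinib pools spanned 2.61-fold on 14 to 44 reads. The log2 fold change was -4.71 ± 0.33. The gene lies on chromosome 16 at 23520291 to 23614222 and overlaps Masp1 and Gm45338, neither of which had a count in any library.

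Mx1 encodes a dynamin-like GTPase that blocks influenza virus replication in the nucleus, and common inbred mouse strains, among them BALB/c and C57BL/6, carry a defective allele of it. Mx1 had 0.951, 1.14 and 1.33 CPM in ruxolitinib pools, against 9.80, 6.08 and 8.35 CPM in control pools, a log2 fold change of -2.81 ± 0.36 on 49 reads in all ruxolitinib pools. The neighbouring Mx2, which the table lists as a polymorphic pseudogene, had 1, 0 and 3 reads in ruxolitinib pools and 27, 19 and 26 reads in control pools. It fell by 3.86 ± 0.75 on the log2 scale (edgeR adjusted p = 0.00196), with no overlap of the groups.

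Xaf1 and Zbp1 are tied to cell death. Xaf1 encodes an antagonist of the caspase inhibitor XIAP and had 4.90, 4.18 and 8.72 CPM in ruxolitinib pools, against 54.9, 65.9 and 60.2 CPM in control pools (-3.34 ± 0.30). Zbp1 encodes a sensor of Z-form nucleic acids that recruits the kinase RIPK3 to start necroptosis. It had 12, 13.8 and 27.6 CPM in ruxolitinib pools, against 171, 156 and 113 CPM in control pools (-3.04 ± 0.34). Both genes were highest in pool 3 among the ruxolitinib pools, and so were Rtp4, Ifit2 and Mx1. Of their partners, Mlkl, which encodes the pore-forming protein of necroptosis, fell by 1.22 ± 0.25 with TMM scaling (edgeR adjusted p = 0.00252; 0.55 ± 0.60 when scaled to Cd3e and Cd8a) and the kinase gene Ripk1 rose by 0.61 ± 0.20 (adjusted p = 0.0240), while Ripk3 had a value of 0.19 ± 0.23 (adjusted p = 0.505) and Xiap one of 0.26 ± 0.25 (adjusted p = 0.404). Adar, whose product edits RNA and limits ZBP1 activation, had a value of -0.50 ± 0.30 (adjusted p = 0.174). Scaled to Cd3e and Cd8a, where most tested genes were higher, the values were 2.46 ± 0.60 for Ripk1 (adjusted p = 0.00012), 2.08 ± 0.59 for Ripk3 (0.000977), 2.09 ± 0.59 for Xiap (0.000991) and 1.28 ± 0.58 for Adar (0.0402). Rtp3, a relative of Rtp4, had 1 read in ruxolitinib pools and 7 in control pools, all of these in control pool 6, and Rtp1 and Rtp2 had none.

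Levels were compared between the 8 genes per length, as TPM (reads per base of the deposited gene length, scaled to the same total in every library). In ruxolitinib pools Zbp1 was highest at 9.70 ± 6.30 TPM (SD, n = 3). Ifit2 came next there at 5.40 ± 2.13 TPM, followed by Ifit3 at 4.25 ± 0.402, while Ifit1 was sixth at 0.718 ± 0.220 TPM. In control pools Zbp1 was again highest at 84.7 ± 20.7 TPM (SD, n = 3), followed by Rtp4 at 47.7 ± 1.05, Ifit1 at 33.1 ± 12.3, Ifit3 at 30.8 ± 10.5, Xaf1 at 26.0 ± 1.64, Ifit2 at 17.4 ± 3.71, Mx1 at 4.35 ± 1.17 and Ifit3b at 3.61 ± 1.54 TPM. Zbp1 stood above Rtp4, Xaf1 above Ifit2 and Ifit2 above Mx1 without overlap, whereas the ranges of Rtp4, Ifit1, Ifit3 and Xaf1 overlapped from each to the next, as did Mx1 and Ifit3b. Ranks of Ifit1 and Rtp4 were lower among the 8 genes in ruxolitinib pools than in control pools, as was that of Mx1, and those of Ifit2, Ifit3, Xaf1 and Ifit3b were higher.

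Because T cell genes were lower in the ruxolitinib pools, each gene was also set against the geometric mean count of Cd3e, a T cell receptor signalling chain, and Cd8a, the CD8 alpha chain. On this measure the 8 genes separated. Ifit1 had 0.466, 0.605 and 0.247 reads per 100 such T cell reads in ruxolitinib pools, against 3.53, 4.09 and 9.24 in control pools. Rtp4 had 1.06, 0.565 and 0.605 in ruxolitinib pools, against 5.08, 6.27 and 7.38 in control pools. For both genes the highest ruxolitinib pool stayed far below the lowest control pool.

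Xaf1 had 2.84, 2.22 and 1.90 reads per 100 T cell reads in ruxolitinib pools, against 5.72, 8.17 and 8.67 in control pools. Zbp1 had 6.94, 7.30 and 5.99 in ruxolitinib pools, against 17.9, 19.3 and 16.3 in control pools. Zbp1 varied least of the 8 among the ruxolitinib pools on this measure, with 1.22-fold between the highest and lowest ruxolitinib pool, where its CPM spanned 2.30-fold. Mx1 had 0.550, 0.605 and 0.289 in ruxolitinib pools, against 1.02, 0.754 and 1.2 in control pools, and its groups were separate by a narrow margin.

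Ifit2, Ifit3 and Ifit3b overlapped between the groups once set against T cell reads. Ifit2 had 6.6, 4.52 and 3.07 reads per 100 T cell reads in ruxolitinib pools, against 3.50, 3.28 and 5.97 in control pools. Ifit3 had 2.75, 2.06 and 0.797 in ruxolitinib pools, against 3.46, 3.46 and 2.55 in control pools. Ifit3b had 0.677, 0.242 and 0.151 in ruxolitinib pools, against 0.473, 0.511 and 0.278 in control pools. For these 3 genes ruxolitinib pool 3, the pool richest in T cell genes, was the lowest of the ruxolitinib pools, and pool 1 was the highest. Neither was particular to them, since pool 3 was also lowest for Ifit1, Mx1, Xaf1 and Zbp1, and pool 1 also highest for Xaf1 and Rtp4.

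**Figure D3:**
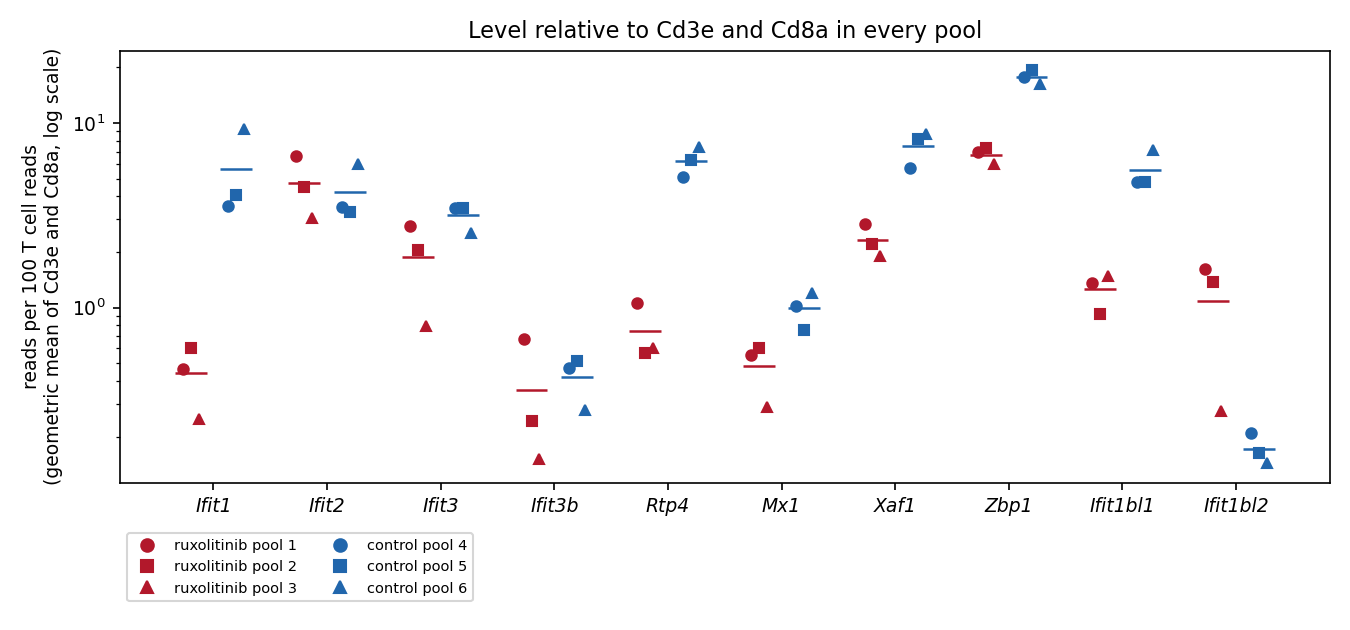
Reads of each gene per 100 T cell reads (geometric mean of Cd3e and Cd8a) on a log axis, 1 point a pool and a bar at the group mean, ruxolitinib pools left and control pools right. Ifit1, Rtp4, Mx1, Xaf1, Zbp1 and Ifit1bl1 are lower in every ruxolitinib pool, Ifit2, Ifit3 and Ifit3b overlap, and Ifit1bl2 is higher in every ruxolitinib pool.

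The 5 genes without overlap compare with 1.45% of the 13480 genes that were lower in all ruxolitinib pools on this measure. With edgeR libraries scaled to Cd3e and Cd8a, 4 of the 8 genes, Ifit1, Rtp4, Xaf1 and Zbp1, were lower at adjusted p under 0.05, against a background of 0.638%, and none was higher, against 66.2% of all tested genes. Scaled to the CD8 identity genes, the same 4 were lower, against a background of 0.482%, with 69.4% of all tested genes higher. The rule used this measure too, so nothing is read from the counts. With scaling to Cd3e and Cd8a, the 4 became 2, Ifit1 and Rtp4, without ruxolitinib pool 2 or control pool 5. Without ruxolitinib pool 1, control pool 4 or control pool 6 they became 3, as Zbp1 no longer passed. All 4 passed without ruxolitinib pool 3. Under this scaling the median of all tested genes was 1.86, with 86 genes lower and 8926 higher, against 3407 lower and 4037 higher with TMM scaling. The log2 fold change was -3.72 ± 0.69 for Ifit1, -3.08 ± 0.65 for Rtp4, -1.70 ± 0.60 for Xaf1 and -1.40 ± 0.58 for Zbp1. It was -1.08 ± 0.74 for Mx1, -0.77 ± 0.62 for Ifit3, -0.30 ± 0.81 for Ifit3b and 0.15 ± 0.58 for Ifit2, whose sign differs from that under TMM scaling. Of the relatives, Ifit1bl1 (-2.14 ± 0.62, edgeR adjusted p = 0.00142) and Mx2 (-2.48 ± 1.09, adjusted p = 0.0367) were lower under this scaling, and Ifit1bl2 was higher (2.62 ± 0.79, adjusted p = 0.00222). Its reads per T cell read were higher in every ruxolitinib pool, as for 66.6% of all tested genes.

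**Figure D4:**
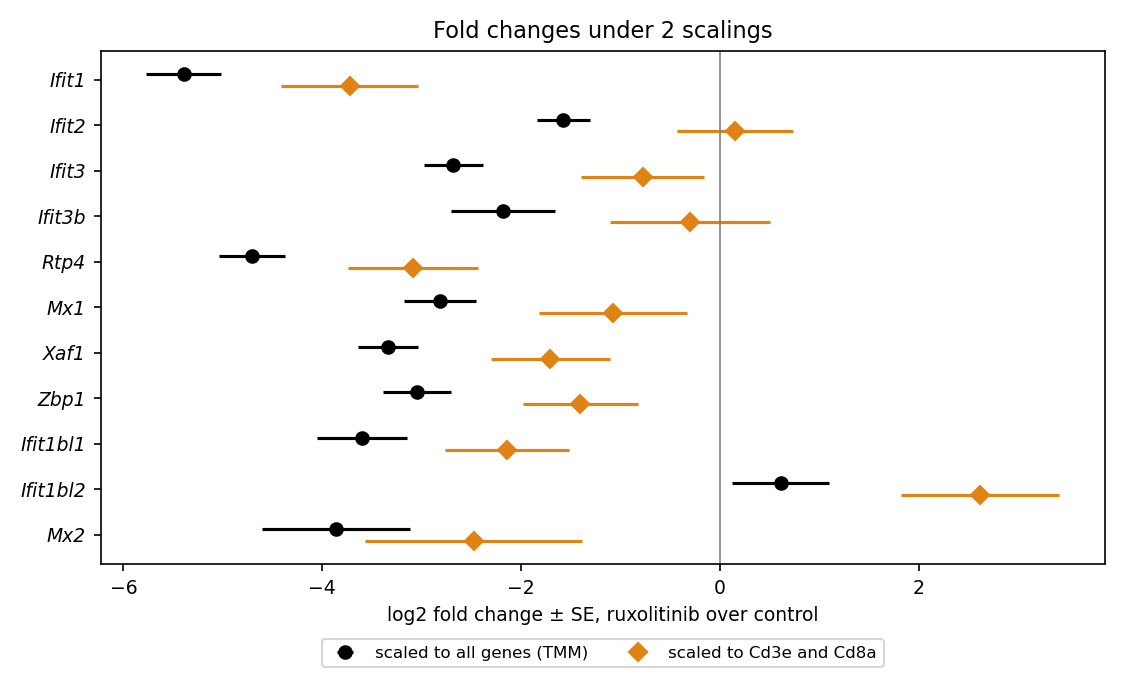
Log2 fold change of the 8 genes and 3 relatives, ruxolitinib over control, with SE bars from edgeR (3 pools a group), scaled to all genes (black) and to Cd3e and Cd8a (orange). All 8 genes are below 0 in black, and in orange they run from -3.72 for Ifit1 to 0.15 for Ifit2.

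The other genes of the pathway were compared through lists that leave out these 8. Of 43 other type I interferon targets, 28 fell and 2 rose, and 13 missed the threshold. Of all tested genes 25.3% fell and 29.9% rose. The median log2 fold change of the targets was -1.36, against 0.03 over all tested genes. The falls with the smallest p were in Irf7, the interferon-induced regulator of interferon genes (-3.28 ± 0.24, edgeR adjusted p = 1.95e-05), Ifi27l2a (-4.59 ± 0.37, 2.28e-05), Oas1a, a maker of the second messenger that activates RNase L (-3.67 ± 0.29, 2.30e-05), and Usp18, which removes ISG15 and damps the type I receptor (-3.76 ± 0.34, 3.80e-05). Their groups did not overlap. The 2 that rose were Rsad2, which encodes viperin (3.69 ± 0.31, 2.82e-05), and Isg20, an exonuclease gene (4.0 ± 0.45, 0.000114). Scaled to Cd3e and Cd8a, 8 of the 43 were lower and 13 higher, with a median of 0.49. Over all tested genes that scaling gave 0.638% lower, 66.2% higher and a median of 1.86. The 8 became 5 without ruxolitinib pool 2. The 13 became 7 without ruxolitinib pool 1, ruxolitinib pool 2 or control pool 5, 8 without control pool 4 and 22 without ruxolitinib pool 3.

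The OAS family, RNA sensors that share inducers with the IFIT genes, had 7 of 8 genes lower and a median of -3.34 with TMM scaling. With scaling to Cd3e and Cd8a it had 4 lower and a median of -1.71. Of all tested genes 25.3% were lower and 29.9% higher with TMM scaling, and 0.638% were lower with scaling to Cd3e and Cd8a. Oas1g had no read in the ruxolitinib pools and 220 in the control pools, which is at least 63.3-fold lower if 3 counts are taken as the floor of a group. Oasl1 (-4.42 ± 0.53, edgeR adjusted p = 0.00017) and Oas3 (-3.07 ± 0.42, 0.000334) fell as well, and Oas1c did not pass (-0.78 ± 0.40, edgeR adjusted p = 0.125). Of 26 measured genes that lean towards interferon gamma, 19 fell and 3 rose, and 4 missed the threshold, with a median of -1.31. Scaled to Cd3e and Cd8a, where 66.2% of all tested genes were higher, 2 of the 26 were lower and 5 higher. The median of the 26 was then 0.31, against 1.86 over all tested genes. The falls with the smallest p were in Psmb10, Igtp, Psmb8 and Psmb9, of the immunoproteasome and the immunity-related GTPases, and ranged from -3.07 ± 0.32 for Psmb10 to -2.37 ± 0.27 for Igtp. The rises were in Ciita, the master regulator of MHC class II genes (1.30 ± 0.26), Irgm2 (0.64 ± 0.20) and Gbp8 (0.62 ± 0.20). The 19 became 12 without ruxolitinib pool 1, and the 3 became 1 without control pool 5.

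**Figure D5:**
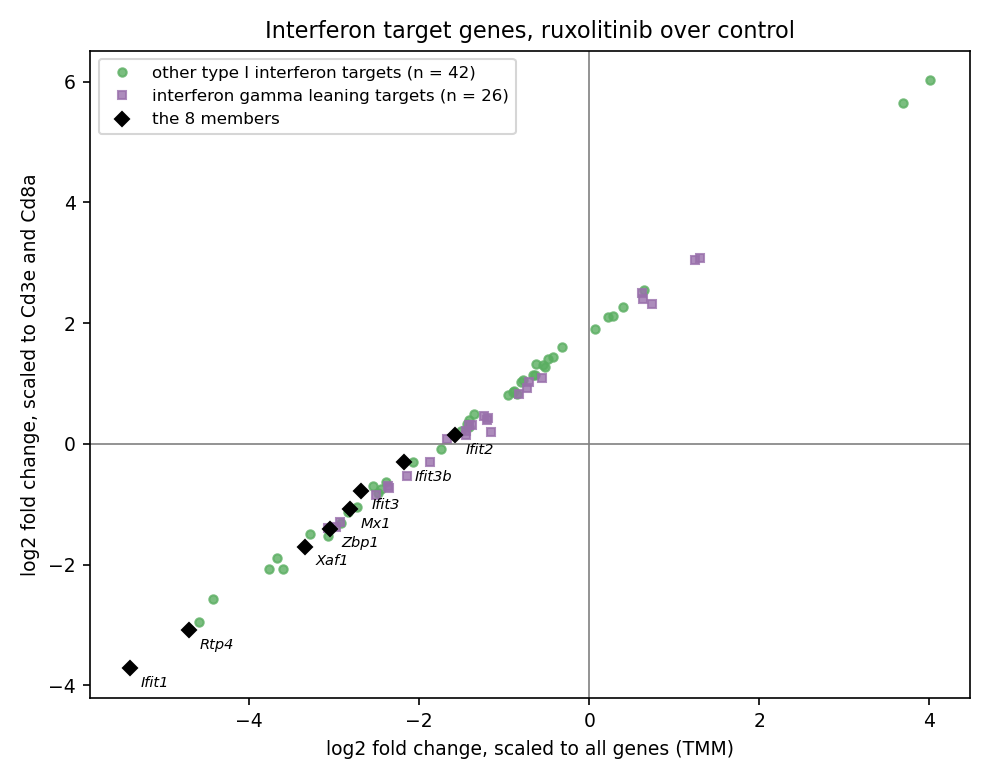
Log2 fold change, ruxolitinib over control, with TMM scaling (x axis) against scaling to Cd3e and Cd8a (y axis) for the 8 genes (diamonds), other type I interferon targets (circles; Oas1g, without reads in ruxolitinib pools, is left out) and interferon gamma leaning targets (squares). Ifit1 and Rtp4 lie at the lower end, Ifit2 lies near 0 on the y axis, and the 2 circles at the upper right are Rsad2 and Isg20.

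Upstream of these targets, the ligand genes Ifnb1, Ifna1, Ifna2, Ifna4, Ifna5, Ifnk, Ifne, Ifnl2 and Ifnl3 had no read in any of the 6 libraries. A count of 0 is not evidence that the cytokine is absent, and cells outside the selected fraction were not measured. Ifng, which encodes interferon gamma, fell by 2.29 ± 0.30 (edgeR adjusted p = 0.000242), and its value scaled to Cd3e and Cd8a was -0.64 ± 0.57 (adjusted p = 0.304). Of 7 receptor and kinase genes, the type I receptor chain gene Ifnar2 rose by 1.83 ± 0.24 (adjusted p = 0.000257), as did Ifngr2 (1.58 ± 0.48, 0.0185) and Jak2 (0.91 ± 0.18, 0.00211). Ifngr1, the ligand-binding chain of the interferon gamma receptor, fell by 1.18 ± 0.24 (0.00279). The values of Ifnar1 (0.16 ± 0.18, adjusted p = 0.493), Jak1 (0.25 ± 0.21, 0.345) and Tyk2 (0.77 ± 0.32, 0.0670) did not pass. With TMM scaling 3 of the 7 thus rose and 1 fell, beside 29.9% and 25.3% of all tested genes. Scaled to Cd3e and Cd8a, 6 of the 7 were higher and none lower, beside 66.2% of all tested genes that were higher.

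Of 11 transcription factors and inhibitors of the pathway, 8 fell, 1 rose and 2 did not pass. Of all tested genes 25.3% fell and 29.9% rose. Scaled to Cd3e and Cd8a, 2 of the 11 were lower and 3 higher, beside 0.638% and 66.2% of all tested genes. Besides Irf7 and Usp18, the falls included Socs1, a feedback inhibitor of JAK kinases (-2.36 ± 0.34, edgeR adjusted p = 0.00039). Of the complex that binds the response element, Irf9 fell (-1.50 ± 0.24, adjusted p = 0.000621), whereas the value of Stat2 was 0.28 ± 0.21 (adjusted p = 0.293). The rise was in Pias1, an inhibitor of cytokine signalling (0.60 ± 0.19, adjusted p = 0.0246). The second value that did not pass was that of Socs3 (-0.47 ± 0.29, adjusted p = 0.188). Scaled to Cd3e and Cd8a, Irf9 had a value of 0.21 ± 0.57 (edgeR adjusted p = 0.744) and Socs1 one of -0.72 ± 0.57 (0.251). Stat2 was higher under that scaling (2.12 ± 0.60, adjusted p = 0.00097). Irf7 (-1.49 ± 0.58, adjusted p = 0.0176) and Usp18 (-2.07 ± 0.68, 0.00483) were lower under it.

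Across the 6 libraries, the genes most like the mean pattern of the 8 included Irf7 (Pearson r = 0.997 of log2 CPM), Cox18 (0.997), Rida (0.997), Snrpert (0.996) and Dhx58 (0.996), among 8780 candidates with a control mean of at least 5 CPM. These r values are a description and mostly reflect the difference between the groups, which all of these genes share. Irf7 and Dhx58, which encodes the RNA sensor LGP2, are interferon targets. Levels were 10.9 to 14.8 CPM in ruxolitinib pools and 97.8 to 146 CPM in control pools for Irf7, and 13.5 to 14.5 CPM in ruxolitinib pools and 35.4 to 38.1 CPM in control pools for Dhx58. Cox18, a mitochondrial assembly gene, had a log2 fold change of -0.91 ± 0.21, so a like pattern did not mean a like size of change.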

How the data were processed

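RNA from 6 libraries of CD8-selected marrow cells, 3 with ruxolitinib and 3 controls, was made into libraries with a NEBNext Ultra II kit and sequenced by the authors, as stated in the labels. HISAT2 2.0.5 and mm10 are named in the submitters' processing notes. How reads were counted, with which strand setting and how reads matching several genes were treated, is not stated in those sources. The deposited table holds raw counts per gene, not normalised.

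The test on the deposited counts was edgeR 4.0.16's quasi-likelihood test, run in R 4.3.3 (filterByExpr, TMM, robust glmQLFit, glmQLFTest with group as the only term, Benjamini-Hochberg adjustment over 13480 genes, threshold 0.05). SE is the size of the log2 fold change over the square root of F. The 8 genes, the lists and the rule for named genes were chosen with earlier results of these data known. The rule named the 8 genes, the 6 genes most alike in pattern, up to 4 called genes with the smallest p in each direction of a pathway list, all receptor and kinase genes and all close relatives with reads. Lipa, Tyrobp, Fcer1g, Klre1, Klra7, Ccr2, Bst2, Prtn3, Xcr1, Batf3, Cd74, Oas1c, Stat2, Irf9 and Socs3 were named after their values were seen. Some genes that the rule names are not reported here. The edgeR script was tested on simulated counts. For scaling to Cd3e and Cd8a, library factors were set to the geometric mean of their counts. Upstream sequences came from RefSeq (GRCm38.p6). DESeq2 1.42.0 and the other alternatives are reported with the closing observations. Counting error limits the precision of genes with few reads. P-values set the difference between the groups against the spread between pools of mice, which edgeR estimates with information shared across genes. The spread between single mice within a pool was not measured.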

Additional observations from a re-analysis of the deposited data

How the results depend on the processing

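Fold changes of the 8 genes kept their sign and moved by less than the spread between pools with DESeq2, RLE factors, haemoglobin genes removed, every gene kept, only genes with 1 CPM or more in 3 libraries kept, and each pool left out in turn. Scaling to Cd3e and Cd8a or to the CD8 identity genes moved the fold changes of 7 genes and turned that of Ifit2 to 0.15 and 0.26. The Ifit2 difference relative to Cd3e and Cd8a (0.14) turned to -0.012 against Cd3e alone, -0.14 without ruxolitinib pool 1 and -0.020 without control pool 5, within a range of -0.14 to 0.42 over the pools left out, and that of Ifit3b (-0.48) was -1.09 without ruxolitinib pool 1 and -0.0063 without ruxolitinib pool 3.

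Under scaling to Cd3e and Cd8a and to the identity genes, 86 and 65 of all 13480 tested genes were lower and 8926 and 9357 higher. Of other type I interferon targets, 8 and 7 were lower and 13 and 13 higher. Of interferon gamma leaning targets, 2 and 1 were lower and 5 and 5 higher, and with no filter 1 was higher under TMM scaling. These scalings measure genes relative to T cell content, which by construction moves them all. Leaving out 1 pool gave 12 to 21 gamma leaning genes lower and 1 to 3 higher. Leaving out 1 pool under the Cd3e and Cd8a scaling, a combination chosen after seeing the data, gave 5 to 9 type I targets lower and 7 to 22 higher, and 0 to 3 gamma leaning genes lower and 5 to 9 higher. The shorter core GAAANNGAA occurred before 3 of the 5 genes with a window, as did the longer one. Without gene length, in CPM, 5 of the 8 genes changed rank in control pools. No paired analysis was possible because the groups share no pool numbers. Ifit1, Ifit3b and Mx1 rest on 33 to 49 reads over the ruxolitinib pools, the fewest of the 8.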
